A study of Mus musculus with 6 samples.

Results

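Semaphorins, plexins and neuropilins were measured in the spinal cord of Nogo-A knockout and wild type mice. The 31 genes, out of 18193 with a probe set of 1 gene symbol, were chosen by name and comprised 20 semaphorins, 9 plexins and 2 neuropilins. The platform annotation assigned 78 probe sets to them. The animals were 3 male Nogo-A knockout mice (Nogo-A KO) and 3 male wild type C57Bl/6 mice, all aged 4 months and untreated. Each animal gave 1 spinal cord and 1 Affymetrix Mouse 430 2.0 array. The knockout is named C57Bl/6 in the labels, which do not describe the targeted allele or say whether the wild type mice were littermates. Replicates were separate animals.

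Semaphorins are ligands that share a sema domain and act on growing axons, blood vessels and immune cells. Those of class 3 are secreted, those of classes 4, 5 and 6 span the cell membrane, and Sema7a is held to it by a lipid anchor. Plexins are their receptors, with an inner domain that acts on small GTPases. Neuropilins hold most class 3 semaphorins for plexins of the A group and, as a separate function, bind vascular endothelial growth factor. In the cord semaphorins are known as guidance cues in development and, after injury, as inhibitors of axon growth made by scar cells and oligodendrocytes. Nogo-A, a product of the gene Rtn4, is another inhibitor of axon growth made by oligodendrocytes.

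In the adult cord of these animals none of the 31 genes differed between the genotypes past the threshold. Signals are the deposited intensities, and a change is the log2 of Nogo-A KO over wild type. Of the 78 probe sets, 56 passed a filter on dim values, at or above the median of the array on at least 2 of 3 arrays of a genotype, and every gene kept at least 1 of them. A gene was represented by its brightest tested probe set. At an adjusted p under 0.05 (limma, Benjamini-Hochberg over 23546 probe sets) 0 of the 56 were called, with adjusted p-values of 0.591 to 0.986, where 0% of all tested probe sets were called higher and 0.00425% lower. At an unadjusted p under 0.05 in limma, 1 member probe set was higher in Nogo-A KO, against 4.3% of all tested, and 1 was lower, against 3.98%. Together these made up 3.57% of the member probe sets tested. The methods' t-test, with its added minimum of a 1.2 fold, called 0 higher and 1 lower before adjustment and 0 after it.

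The precision of these arrays allows a firmer statement for some members than for others. The 95% interval of the change lay within a 2-fold difference either way in 27 of the 31 genes and within 1.5-fold in 13. The exceptions to the 2-fold bound were Sema3f, Sema6b, Sema6c and Plxnd1. The median change of the 31 genes was -0.08, against 0.03 over all 11651 tested genes, and 14 of 31 lay above 0, against 55.8% of all. The median size of the change without its sign was 0.21, against 0.13 over all tested genes. The member genes were also dimmer than the rest, with a median signal rank in wild type at percentile 72.6, against 78.6 for all tested genes.

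Among the probe sets of Rtn4, 1437224_at read 78.2, 9.17 and 5.08 in Nogo-A KO and 3560, 2790.4 and 2802 in wild type (limma, adjusted p = 0.0149). The sources do not say where it lies relative to the targeted allele. The other 4 Rtn4 probe sets were brighter in every Nogo-A KO array than in every wild type array. Dim signals differed between arrays: the 5th percentile was 4.57 to 4.91 on the Nogo-A KO arrays and 5.26, 10.5 and 19.97 on wild type replicates 1 to 3. Wild type replicate 3 correlated least with the other arrays (mean r = 0.930, against 0.951 to 0.961 for the others). Of the listed markers, 7 of 8 for oligodendrocytes, 6 of 6 for astrocytes and 6 of 6 for neurons were among the tested genes. Only 1 of 4 motor neuron markers was. Skeletal muscle markers summed to 1315, 9357 and 1159 in Nogo-A KO and 761, 1539 and 4476 in wild type over 4 tested genes, highest on Nogo-A KO replicate 2 and wild type replicate 3. Markers of Schwann cells summed to 16035 to 22387 in Nogo-A KO and 13063 to 15440 in wild type over 2 of 4 listed genes, both higher at an unadjusted p under 0.05 in limma. Those of oligodendrocyte precursors summed to 2320 to 2347 in Nogo-A KO and 1925 to 2285 in wild type over 4 genes, with 0 at that threshold. The part of either in the members' signals was not tested. In whole cord, fewer cells of a type and less RNA per cell cannot be told apart.

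Signals were ranked within each array, from 0 for the dimmest to 100 for the brightest of the 45037 probe sets that were not controls. A rank depends on the probe set as well as on the transcript, so it places each probe set on the array and does not order the genes by abundance. In wild type 3 genes stood at or above percentile 90, 18 between 70 and 90 and 10 below 70. Those at the top were Sema6d at 97.9, Sema7a at 92.1 and Plxnb3 at 91.3. Among the plexins and neuropilins, Plxna2 stood at 89.2, Nrp1 at 89.1 and Nrp2 at 80.6. The lowest brightest probe sets were those of Sema6b at 39.1 and Plxnd1 at 43.5. Of the plexin and neuropilin probe sets 24 of 30 passed the filter, and of the semaphorin probe sets 32 of 48.

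**Figure D1:**
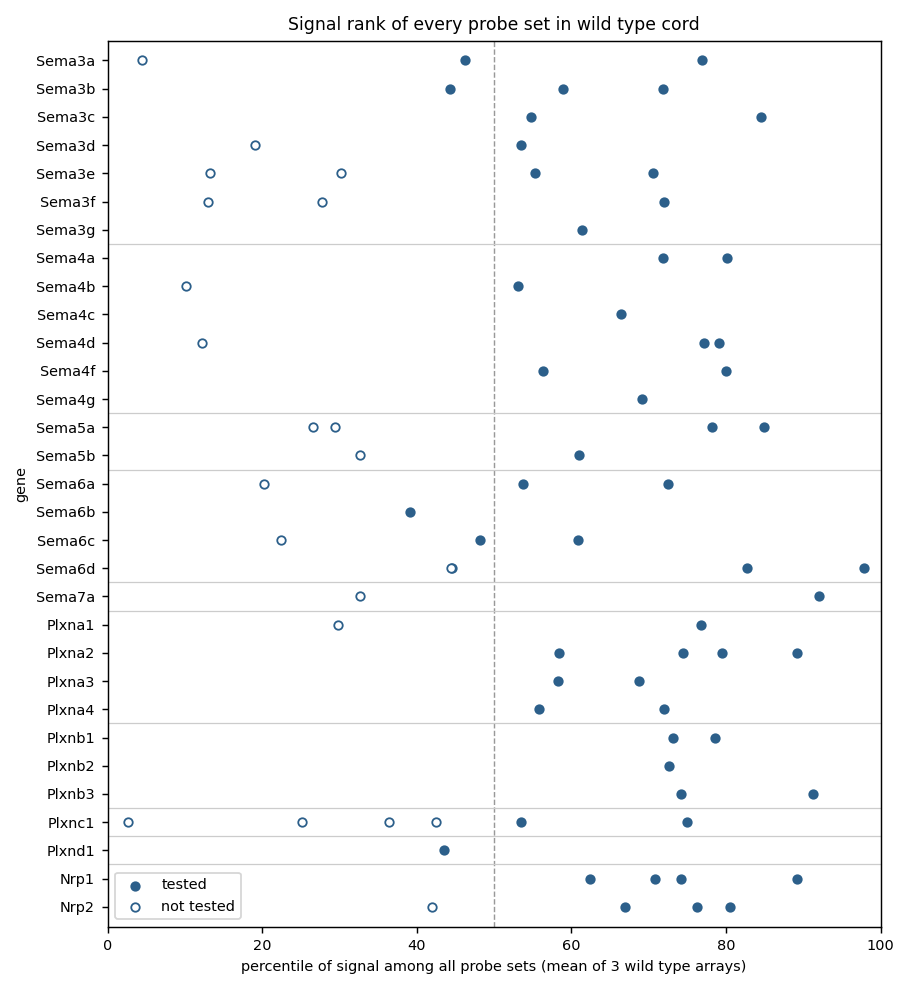
Percentile of the signal of each of the 78 probe sets among all probe sets of the array, as the mean of 3 wild type arrays, with 1 line per gene, a dashed line at the array median and grey lines between classes. Filled points are the 56 tested probe sets and open points the 22 that were not tested, and the rightmost point of Sema6d stands at 97.9.

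The brightest member was Sema6d, a transmembrane semaphorin that binds Plexin-A1, and it was the member with the smallest p. Its probe set 1453055_at read 6809, 6456 and 8257 in Nogo-A KO and 6084, 5461 and 5814 in wild type. Every Nogo-A KO array was above every wild type array, and Nogo-A KO replicate 3 was the highest. The mean was 7174 ± 954 in Nogo-A KO and 5786 ± 312 in wild type (SD, n = 3 each). The change was 0.30 with a standard error of 0.11, a fold of 1.23 with a 95% interval of 1.05 to 1.45 (limma, unadjusted p = 0.0157, adjusted p = 0.591). Without Nogo-A KO replicate 3 the change was 0.20 (limma, unadjusted p = 0.0911), and after quantile normalization it was also 0.20 (0.0734). The unadjusted p in limma was also above 0.05 without wild type replicate 2 (0.0545) and without the intensity trend in the variance model (0.0648). The methods' t-test did not call this probe set.

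The other tested probe set of Sema6d, 1448060_at, read 836, 935 and 1035 in Nogo-A KO and 849, 813 and 995 in wild type. Its groups overlapped, and its change was 0.08 with a standard error of 0.14 (limma, adjusted p = 0.895). The mean of both tested probe sets gave a change of 0.19 (limma, unadjusted p = 0.0928). The deposited table does not say which transcripts the 2 probe sets read. Summed markers of oligodendrocytes over 7 tested genes were 121946 to 134973 in Nogo-A KO and 106564 to 110512 in wild type, with 5 of 7 above 0 in change and 3 of 7 higher at an unadjusted p under 0.05 in limma. Their part in the signal of Sema6d was not tested.

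The start regions of Sema6d and of the 2 plexins with a tested probe set whose genotypes did not overlap, Plxnb3 and Plxnc1, are shown to place these genes in the genome and to compare their base content. Sequences are from RefSeq on GRCm38.p6, 300 bases each, from 250 before to 50 after a transcript start, 5′ to 3′ on the gene's strand. Capitals mark ACAAAG or its reverse complement, a core sequence bound by SOX factors.
Sema6d start 1, chr2:124089719-124090018, + strand: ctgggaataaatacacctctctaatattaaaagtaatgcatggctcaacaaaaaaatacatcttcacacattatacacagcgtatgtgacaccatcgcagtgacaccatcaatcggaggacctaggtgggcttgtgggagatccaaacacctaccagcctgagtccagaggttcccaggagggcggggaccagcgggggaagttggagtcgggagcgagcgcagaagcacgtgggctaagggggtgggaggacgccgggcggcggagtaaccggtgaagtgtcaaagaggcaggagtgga
Sema6d start 2, chr2:124653331-124653630, + strand: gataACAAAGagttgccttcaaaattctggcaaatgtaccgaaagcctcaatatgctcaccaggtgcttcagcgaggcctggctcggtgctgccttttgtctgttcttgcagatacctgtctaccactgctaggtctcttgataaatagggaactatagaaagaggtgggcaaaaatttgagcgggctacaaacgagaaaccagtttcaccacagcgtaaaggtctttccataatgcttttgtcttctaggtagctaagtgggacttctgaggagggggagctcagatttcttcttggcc
Plxnb3, chrX:73756853-73757152, + strand: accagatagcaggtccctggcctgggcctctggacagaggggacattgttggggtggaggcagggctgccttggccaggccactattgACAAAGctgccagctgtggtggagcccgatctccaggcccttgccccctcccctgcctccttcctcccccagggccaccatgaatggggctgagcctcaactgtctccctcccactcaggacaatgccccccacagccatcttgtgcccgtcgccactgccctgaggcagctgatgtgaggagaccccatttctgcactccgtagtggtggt
Plxnc1, chr10:94944796-94945095, - strand: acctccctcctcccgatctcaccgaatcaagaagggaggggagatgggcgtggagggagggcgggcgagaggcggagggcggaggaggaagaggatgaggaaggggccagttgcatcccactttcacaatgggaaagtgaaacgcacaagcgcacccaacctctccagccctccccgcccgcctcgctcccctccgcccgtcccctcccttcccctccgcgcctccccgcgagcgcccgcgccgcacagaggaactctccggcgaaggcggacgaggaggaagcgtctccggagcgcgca

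A search for 3 short motifs covered both strands of every promoter in that table. They were the SOX core ACAAAG, the box named CCAAT that binds the factor NF-Y, and the core promoter element TATAAA. No motif contains another. The first was found once in the second start of Sema6d and once in Plxnb3, and in neither the first start of Sema6d nor Plxnc1. The member set left out a chromosome that the set of all promoters kept, so the 2 sets were not built by the same rule. Plxna1, Plxna4, Sema3b, Sema3f and Sema6a had no promoter in the member set. Over the 37 promoters of the 26 genes in that set, 8 held ACAAAG, or 21.6%, against 18.7% of all 32851 promoters. In the same sets 7, or 18.9%, held CCAAT, against 37.4%, and 0 held TATAAA, against 13.6%. The member promoters had a median of 63.7% G and C and 15 CG dinucleotides, against 52.7% and 7 over all. Plxnc1 had 30 CG dinucleotides and Plxnb3 had 4, with 14 and 6 at the starts of Sema6d. These are descriptions of letters in a window and name no factor.

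Plxnc1, the plexin that receives Sema7a, was the other member with an unadjusted p under 0.05. Its probe set 1423213_at read 429.6, 447 and 438 in Nogo-A KO and 483, 622 and 566 in wild type. All Nogo-A KO values were below all wild type values and lay close together. The mean was 438 ± 8.94 in Nogo-A KO and 557 ± 69.9 in wild type (SD, n = 3 each), a fold of 0.791 (limma, change -0.34, standard error 0.15, unadjusted p = 0.0499, adjusted p = 0.601). The unadjusted p in limma was above 0.05 after quantile normalization (0.0626), with no filter (0.0576), with division by the array median, which tests the change without removing the shift of all probe sets (0.532), and with any 1 array other than wild type replicate 1 left out (0.0736 to 0.181). The second tested probe set, 1450905_at, ran the other way, with 228, 264 and 192 in Nogo-A KO and 207, 250.1 and 159.6 in wild type, overlapping groups and a change of 0.16 (adjusted p = 0.890 in limma). The mean of both gave -0.09. Of the 4 probe sets of Plxnc1 that were not tested, 1443434_s_at read 80.0, 87.9 and 92.8 in Nogo-A KO and 64.7, 61.0 and 40.3 in wild type. Every Nogo-A KO value was above every wild type value, and all 6 lay under the median of their array.

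Sema7a, the ligand of Plexin-C1 and also of a beta1 integrin, had no such separation. Its tested probe set read 1574, 1623 and 1738 in Nogo-A KO and 1433, 1951 and 2720.1 in wild type. The Nogo-A KO values lay inside the range of the wild type values, which spread widely, with replicate 3 the highest and replicate 1 the lowest. The change was -0.26 with a standard error of 0.19 (limma, adjusted p = 0.713), it was -0.03 without wild type replicate 3, and without wild type replicate 1 it was -0.49 (limma, unadjusted p = 0.00841, adjusted p = 0.218). The 5th percentiles of the arrays, given above, were highest on that replicate 3 and lowest in wild type on replicate 1. Their part in this signal was not tested.

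**Figure D2:**
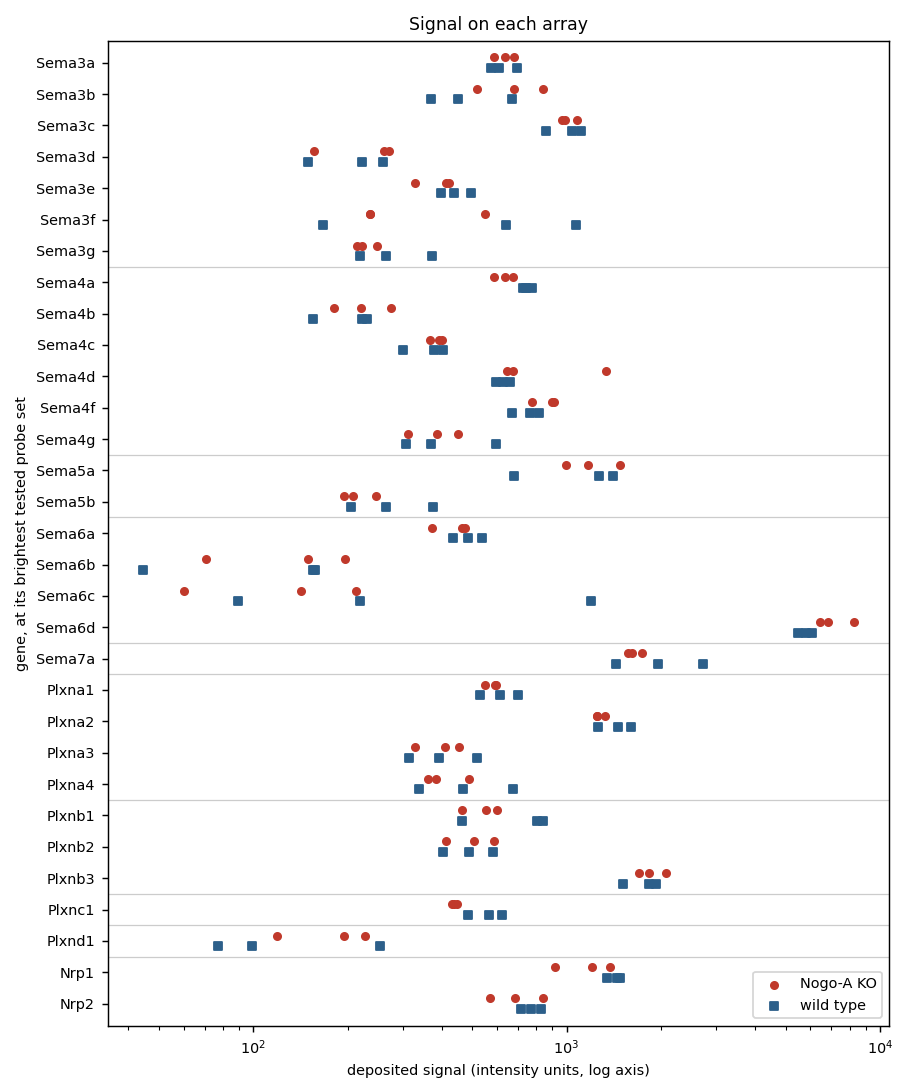
Deposited signal on a log axis for the 31 genes at their brightest tested probe set, with 3 Nogo-A KO arrays as circles above 3 wild type arrays as squares. Nogo-A KO and wild type do not overlap in Sema6d, Sema4a and Plxnc1, and 1 wild type square of Sema6c stands at 1197, far from the others.

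Of the tested probe sets, 3 of 56 had all Nogo-A KO values above all wild type values, or 5.36%, against 7.84% of all tested probe sets, and 2 had them below, or 3.57%, against 6.62%. These were Sema6d, Plxnb3 and Sema3a on the higher side and Plxnc1 and Sema4a on the lower side. Both shares were under those of all tested probe sets. Of the probe sets that were not tested, 3 of 22 had all Nogo-A KO values above, in Sema6a, Plxna1 and Plxnc1, where 2.06% of the 21491 probe sets not tested did, and 0 had them below, against 12%. The arrays differed in their dim signals, as given above, and the part of that in these counts was not tested.

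Secreted class 3 semaphorins are taken first. Of their 7 genes 4 had a change above 0 and 3 below, with a median of 0.02, and 0 of 12 tested probe sets had an unadjusted p under 0.05 in limma. Sema3a, a repellent of sensory and motor axons that signals through Nrp1, read 587, 679 and 635 in Nogo-A KO and 694, 576 and 608 in wild type at its brightest probe set. The groups overlapped fully, and the change was 0.02 with a 95% interval of -0.29 to 0.33. Its dimmer probe set 1449865_at read 189.5, 220.0 and 196 in Nogo-A KO and 183, 173 and 103 in wild type. Here Nogo-A KO was above wild type on every array, with the gap to the nearest wild type array smaller than the spread within wild type, and the change was 0.44 with an interval of -0.27 to 1.15 (limma, adjusted p = 0.715).

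Sema3b read 844, 518 and 678 in Nogo-A KO and 671, 452 and 369 in wild type at its brightest probe set. The ranges overlapped, with wild type replicate 1 above Nogo-A KO replicate 2. The change was 0.47 with a standard error of 0.24 (limma, adjusted p = 0.621), and all 3 tested probe sets of the gene had a change above 0, from 0.13 to 0.47. Without wild type replicate 1 the change was 0.71 (limma, unadjusted p = 0.00958, adjusted p = 0.225). It was 0.27 without wild type replicate 3 and 0.30 without Nogo-A KO replicate 1 (limma, unadjusted p = 0.233 and 0.275). Summed markers of meninges and fibroblasts over 5 tested genes were 9357 to 10444 in Nogo-A KO and 6348 to 8187 in wild type, with 4 of 5 higher and 1 of 5 lower at an unadjusted p under 0.05 in limma. Several class 3 semaphorins are known to be made by such cells, and the part of these cells in the signal of Sema3b was not tested.

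Sema3f, a ligand of Nrp2, had the widest spread of the class. It read 236, 235 and 549 in Nogo-A KO and 166, 641 and 1076 in wild type. Wild type held both the lowest and the highest of the 6 arrays, and the change of -0.64 had an interval of -1.87 to 0.60. It was -1.41 without wild type replicate 1 (limma, unadjusted p = 0.0036, adjusted p = 0.194) and -0.07 without wild type replicate 3. This probe set, 1438947_x_at, is of a type whose name marks probes that may bind other transcripts, and the 2 other probe sets of the gene were too dim to be tested.

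The other 4 genes of the class showed small changes. Sema3c, which guides neural crest and cardiac cells, averaged 1011 ± 60.7 in Nogo-A KO and 1002 ± 129 in wild type (SD, n = 3 each), a change of 0.02. Sema3e, which binds Plexin-D1 without a neuropilin, had -0.20, Sema3g, a ligand of Nrp2, had -0.29, and Sema3d had 0.12. Their intervals were -0.59 to 0.19, -0.83 to 0.26 and -0.56 to 0.81, in that order. Sema3a, Sema3c, Sema3d and Sema3e all lie on mouse chromosome 5 in the RefSeq table, and their changes of 0.02, 0.02, 0.12 and -0.20 had intervals that all spanned 0.

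Class 4 semaphorins, which span the membrane and act mostly on plexins of the B group, had a median change of 0.13 over 6 genes, with 4 above 0. Sema4d, made by oligodendrocytes and a ligand of Plexin-B1 that inhibits axon growth, read 648, 675 and 1337 in Nogo-A KO and 626, 594 and 662 in wild type. A single array, Nogo-A KO replicate 3, set the difference: the change of 0.42 (limma, adjusted p = 0.662) was 0.08 without it. The second tested probe set of Sema4d, 1420824_at, read 763, 689 and 791 in Nogo-A KO and 566, 680.1 and 884 in wild type, with no high value on that array and a change of 0.10.

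Sema4a, which acts on immune cells as well as neurons, separated at its brightest probe set, with 675, 634 and 587 in Nogo-A KO and 726, 778 and 742 in wild type. Nogo-A KO lay below wild type on every array, and the change was -0.25 with an interval of -0.53 to 0.04 (limma, unadjusted p = 0.0847, adjusted p = 0.634). Its second probe set, 1448110_at, read 504, 471 and 547 in Nogo-A KO and 387, 473 and 563 in wild type, overlapped and had a change of 0.11, and the mean of the 2 was -0.07. The brighter one, 1438934_x_at, is again of the type that may bind other transcripts. Sema4f had a change of 0.21 at its brightest probe set, 1439768_x_at, which is of that type too, and 0.28 at its other one. Sema4b had 0.15, Sema4c, a ligand of Plexin-B2, had 0.11, and Sema4g had -0.11. None of these 4 had an unadjusted p under 0.05 in limma.

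Class 5 semaphorins had 0 of 3 tested probe sets at an unadjusted p under 0.05 in limma. Class 6 had 1 of 7, that of Sema6d given above. Sema5a, which carries thrombospondin repeats beside its sema domain, read 995, 1484 and 1173 in Nogo-A KO and 1411, 1271 and 682 in wild type. Its groups overlapped, with a change of 0.17 at this probe set and -0.08 at its other one. Sema5b had a change of -0.34 with an interval of -0.93 to 0.24. In class 6, Sema6a, a ligand of Plexin-A2 and Plexin-A4 with a role in oligodendrocyte maturation, averaged 436 ± 56.7 in Nogo-A KO and 486 ± 52.1 in wild type (SD, n = 3 each), a change of -0.16, while its second tested probe set had 0.41. A further probe set, 1425903_at, did not pass the filter and read 137, 105 and 162 in Nogo-A KO and 49.5, 44.9 and 31.04 in wild type. All wild type values there lay under the array median, and so did 2 of the 3 Nogo-A KO values. With no filter its change was 1.69 (limma, unadjusted p = 0.00847, adjusted p = 0.59).

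Sema6c showed how far 1 array could carry a value. Its brightest probe set read 213, 59.9 and 142 in Nogo-A KO and 89.8, 219 and 1197 in wild type. Only wild type replicate 3 was high, the other 2 wild type arrays lay within or near the Nogo-A KO range, and the change of -1.23 had an interval of -2.94 to 0.48 (limma, adjusted p = 0.680). It was -0.72 without Nogo-A KO replicate 2. It was -2.07 without wild type replicate 1 (limma, unadjusted p = 0.0138, adjusted p = 0.251), and without wild type replicate 3 the probe set no longer passed the filter. Its second tested probe set read 217, 74.7 and 134 in Nogo-A KO and 26.1, 216 and 472 in wild type, with a change of -0.10 and replicate 3 again the highest in wild type. Both tested probe sets of Sema6c passed the filter only through wild type, where they were higher, so the filter favoured a change below 0. Sema6b had a change of 0.31 with an interval of -1.03 to 1.66. Its probe set passed the filter only through Nogo-A KO, where it was higher.

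Wild type replicate 3 held the highest of the 3 wild type values at 25 of 56 member probe sets, or 44.6%, against 38.7% of all tested probe sets. The spread on the log2 scale was larger in wild type than in Nogo-A KO at 38 of 56 members, or 67.9%, against 68.0% of all tested.

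**Figure D3:**
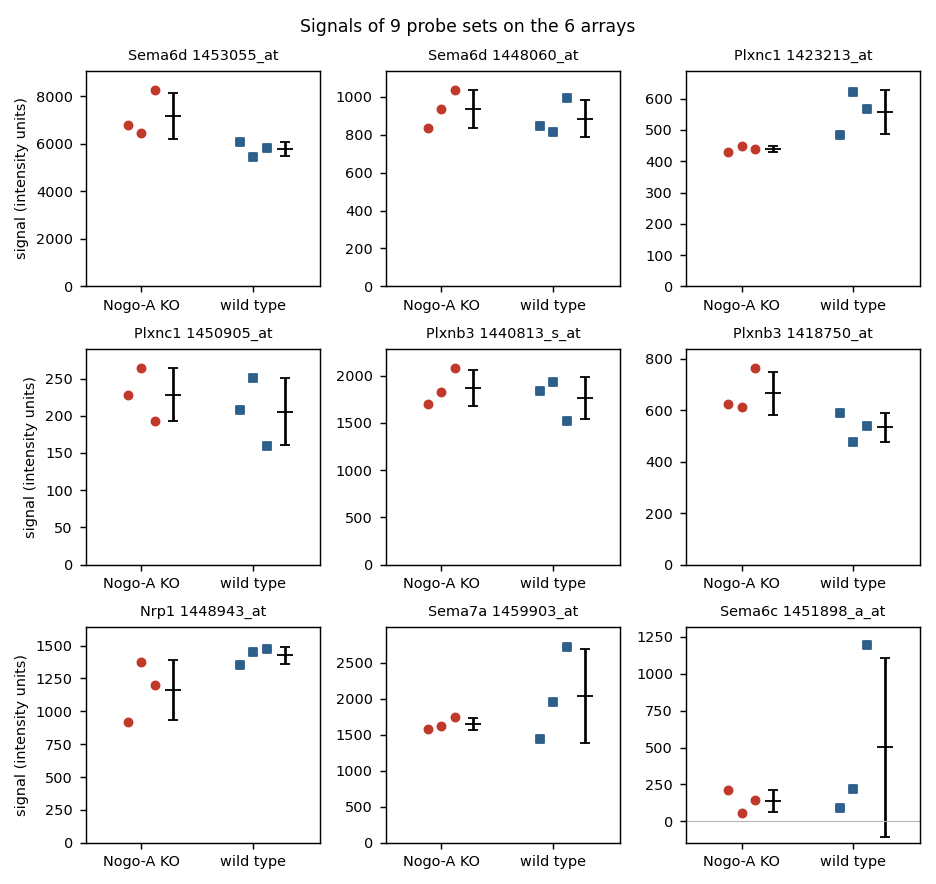
Signals of 9 probe sets on the 6 arrays, with Nogo-A KO as circles to the left of wild type as squares and a black mark for the mean and SD of each genotype (n = 3 each). Sema6d 1453055_at separates upward and Plxnc1 1423213_at downward, while the second probe set of each overlaps, and in Sema6c 1 wild type array at 1197 sets the mean.

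Plexins are the receptors of these ligands. Of the 9 plexin genes, 3 had a change above 0 and 6 below, with a median of -0.08, and 1 of 17 tested probe sets, that of Plxnc1, had an unadjusted p under 0.05 in limma. The 4 plexins of the A group, which pair with neuropilins for class 3 ligands, all had a change below 0 at their brightest probe set, although that of Plxna3 was 0.03 after quantile normalization and those of Plxna1, Plxna3 and Plxna4 turned above 0 with 1 array left out. Plxna1 had -0.08, Plxna2 -0.17, Plxna3 -0.02 and Plxna4 -0.22. All 4 intervals spanned 0, and 1 of the 4 probe sets of Plxna2 had 0.07.

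Plxna2, a receptor of Sema6a, read 1252, 1330.4 and 1249 in Nogo-A KO and 1608, 1263 and 1459 in wild type. Nogo-A KO values lay close together within or just under the wild type range, and the interval of the change was -0.44 to 0.10. Plxna1, a receptor of Sema6d, averaged 579 ± 25.7 in Nogo-A KO and 613 ± 84.3 in wild type (SD, n = 3 each). Plxna3, which with Nrp2 receives Sema3f, averaged 397 ± 63.2 in Nogo-A KO and 408 ± 102 in wild type. Plxna4, which with Nrp1 receives Sema3a, averaged 411 ± 67.4 in Nogo-A KO and 494 ± 169 in wild type. In Plxna4 the 2 tested probe sets had changes of -0.22 and -0.53, and in Plxna3 -0.02 and -0.67.

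In the B group, whose members receive class 4 semaphorins and Sema5a, Plxnb3 was the brightest on the arrays. This plexin is known in mouse from oligodendrocytes. Its dimmer probe set 1418750_at read 625, 611 and 762 in Nogo-A KO and 587, 474 and 539 in wild type. Nogo-A KO was above wild type on every array, with a change of 0.32 and an interval of -0.02 to 0.65 (limma, unadjusted p = 0.0615, adjusted p = 0.609). The brighter one, 1440813_s_at, read 1703, 1832 and 2077 in Nogo-A KO and 1838, 1934 and 1517 in wild type, overlapped, and had a change of 0.09 with an interval of -0.19 to 0.37. The oligodendrocyte marker sums given for Sema6d stood beside this gene too, and their part in it was not tested.

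Plxnb1, the receptor of Sema4d, had 2 probe sets that parted. One read 553, 464 and 598 in Nogo-A KO and 463, 804 and 839 in wild type, and the other read 568, 548 and 638 in Nogo-A KO and 439, 609 and 479.8 in wild type. Wild type was high on replicates 2 and 3 in the first and only on replicate 2 in the second. Their changes were -0.34 and 0.21, and the first was -0.62 without wild type replicate 1 (limma, unadjusted p = 0.0038, adjusted p = 0.194). It was -0.22 without wild type replicate 2 and -0.19 without wild type replicate 3 (limma, unadjusted p = 0.393 and 0.404), and the mean of both probe sets was -0.07. Plxnb2, a receptor found in many tissues, read 508, 413 and 585 in Nogo-A KO and 405, 489 and 581 in wild type, a change of 0.03. Plxnd1, the receptor of Sema3e in vessels, read 228, 119 and 195 in Nogo-A KO and 99.3, 77.4 and 254 in wild type, and its change of 0.48 had an interval of -0.58 to 1.54. The change of Plxnd1 was 0.99 without wild type replicate 3 (limma, unadjusted p = 0.0286, adjusted p = 0.370), 0.31 without wild type replicate 1 and 0.13 without wild type replicate 2. In wild type this probe set reached the array median only on replicate 3. It passed the filter only through Nogo-A KO, where it was higher, so the filter favoured a change above 0.

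**Figure D4:**
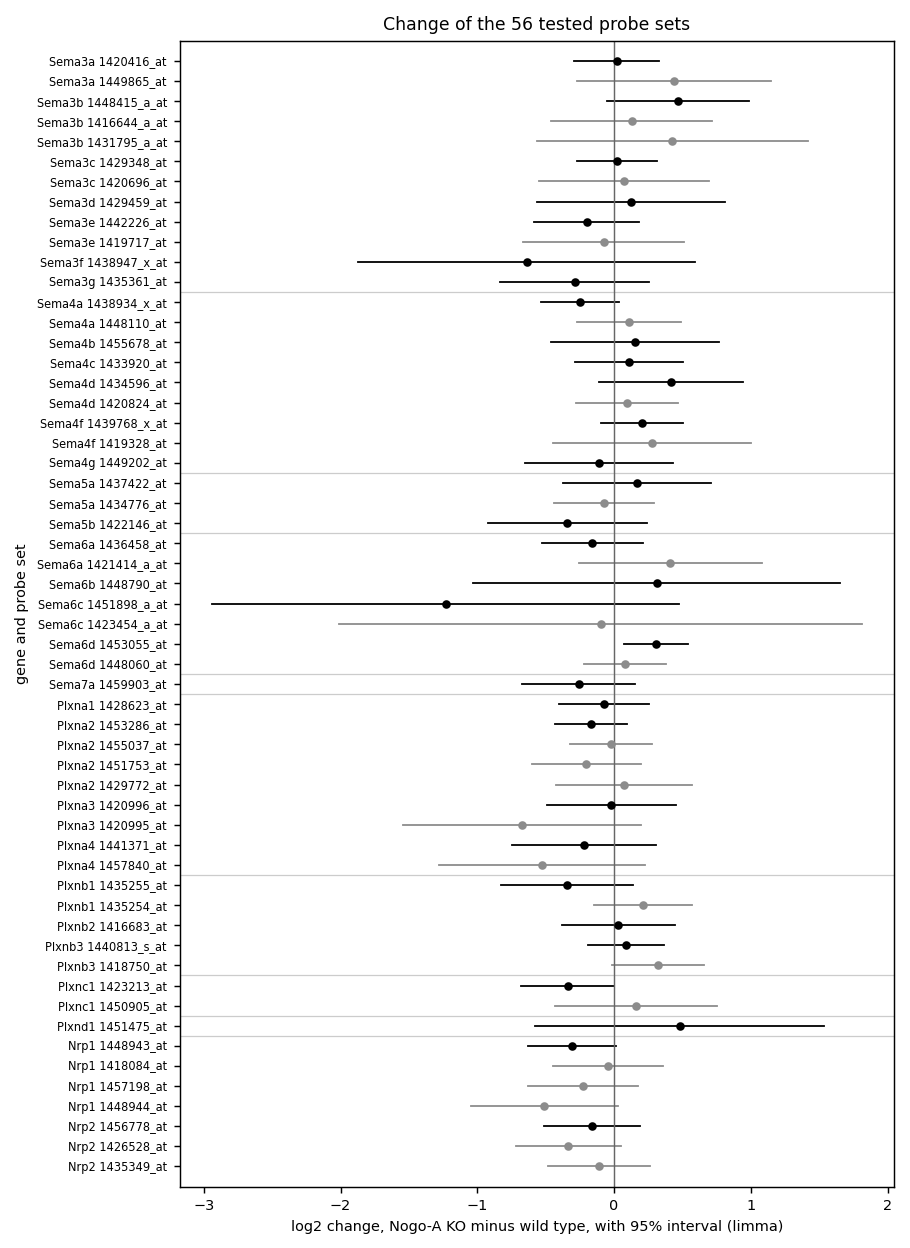
Log2 change of Nogo-A KO minus wild type with its 95% interval for the 56 tested probe sets, black for the brightest probe set of each gene and grey for the others. The intervals of 54 probe sets span 0, and those of Sema6d at 0.30 and Plxnc1 at -0.34 do not.

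The neuropilins gave changes of 1 sign at every tested probe set, none of them past the threshold. All 7 lay below 0, from -0.51 to -0.04 at the 4 of Nrp1 and from -0.33 to -0.11 at the 3 of Nrp2. All 7 also lay below 0 after quantile normalization. Division by the array median moves every change by the same amount, so a sign relative to that shift is no separate check. Probe sets of 1 gene share the same animals and transcript and are not separate evidence. Nrp1, the co-receptor of Sema3a, read 922, 1373 and 1201 in Nogo-A KO and 1349, 1448 and 1476 in wild type at its brightest probe set. Nogo-A KO replicates 1 and 3 were below wild type, and replicate 2 lay inside its range. The mean was 1165 ± 228 in Nogo-A KO and 1425 ± 67.0 in wild type (SD, n = 3 each), a fold of 0.808 with an interval of 0.645 to 1.01 (limma, change -0.31, unadjusted p = 0.0601, adjusted p = 0.609).

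This value of Nrp1 depended on single arrays. The change was -0.15 without Nogo-A KO replicate 1 and -0.44 without Nogo-A KO replicate 2 (limma, unadjusted p = 0.310 and 0.0174), and after quantile normalization the unadjusted p was 0.0481. Nrp1 is also made by endothelium, and summed endothelial markers over 6 tested genes were 3204 to 4013 in Nogo-A KO and 3432 to 4637 in wild type, with 1 of 6 lower at an unadjusted p under 0.05 in limma. Their part in the signal of Nrp1 was not tested. Nrp2, the co-receptor of Sema3f, read 569.8, 843 and 683 in Nogo-A KO and 832, 773 and 715 in wild type, and its groups overlapped with a change of -0.16 and an interval of -0.52 to 0.19. The change of Nrp2 was -0.03 without Nogo-A KO replicate 1, -0.31 without Nogo-A KO replicate 2 and -0.11 without wild type replicate 1.

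Probe sets of 1 gene were compared where more than 1 was tested. Of 19 such genes, 13 had changes of 1 sign and 6 of mixed sign. The mixed genes were Plxna2, Plxnb1, Plxnc1, Sema4a, Sema5a and Sema6a. Both probe sets with an unadjusted p under 0.05 had a tested companion without it, of the same sign in Sema6d and of the opposite sign in Plxnc1.

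Partners of the pathway were read from a separate list of 47 genes, of which 42 were tested, each at its brightest probe set. At an unadjusted p under 0.05 in limma 5 of the 42 were higher in Nogo-A KO and 0 lower. Over all tested genes 4.93% were higher and 3.24% lower. The share of partners higher was above that of all tested genes, and the difference was not tested. After adjustment 0 passed (lowest adjusted p = 0.591 in limma). The median change was 0.03, the same as over all tested genes to 2 decimals, and 23 of 42 lay above 0. Of 13 tested receptor partners and other ligands, the 1 higher was L1cam, an adhesion molecule that joins Nrp1 in the Sema3a receptor. It read 2753, 2263 and 2644 in Nogo-A KO and 1964, 2072 and 2238 in wild type, with every Nogo-A KO array above (limma, change 0.28, unadjusted p = 0.0256, adjusted p = 0.595).

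Of 29 tested transducers inside the cell, 4 were higher at that threshold, and in each every Nogo-A KO array was above every wild type array. These 4 were picked by p, so that separation is no added evidence. Over all tested probe sets 7.84% separated in this direction. Cfl1, the cofilin that cuts actin filaments, read 16723, 16102 and 18314 in Nogo-A KO and 12387, 16028 and 12490.2 in wild type, a change of 0.33. Its probe set, 1455138_x_at, is of the type that may bind other transcripts. Rnd2 had 0.27, Cdk5, a kinase active in the Sema3a response, had 0.24, and Rac1, a GTPase bound by plexins of the B group, had 0.20. Their unadjusted p-values in limma were 0.0118 to 0.0376 and their adjusted p-values 0.591 to 0.596. Among the other partners, Fes and Met also had every Nogo-A KO array above every wild type array (limma, unadjusted p = 0.0774 and 0.294). Both passed the filter only through Nogo-A KO, where they were higher, so the filter favoured a change above 0 and their separation is no evidence.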

How the data were processed

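Spinal cord RNA was labelled with biotin and hybridised to 1 array per animal, 3 Nogo-A KO and 3 wild type. The deposited values are intensities on a linear scale that the authors made with Affymetrix GCOS 1.4 and its MAS 5.0 algorithm (tool names per the submitters' processing notes). Their trimmed means were about equal between arrays. This scaling was kept, since division by the array median, taken here as the per-chip step of the series design, moved the median change of all tested probe sets to 0.23. The 64 control probe sets were left out, and log2 of the rest was tested. A probe set entered the test if 2 or more of the 3 values of either genotype reached the median of their arrays. Genotypes were compared across all tested probe sets in limma 3.58.1 under R 4.3.3 (lmFit, eBayes with trend), with Benjamini-Hochberg adjustment at 0.05. An exact permutation test of 3 against 3 cannot give a p below 0.1. The number of arrays limits the precision.

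Symbols came from the platform annotation, updated by gene identifier to RefSeq GRCm38.p6 (34945 probe sets had 1 symbol, 932 several and 9160 none listed). Scan dates and batches were not given in the sources used here. The members, the lists and the rules were chosen with earlier results of these data known. The rule gave values on every array for genes with an unadjusted p under 0.05 or no overlap at a tested probe set, or at percentile 90 or above. Sema3b, Sema3f, Sema4d, Sema5a, Sema6c, Plxna2, Plxnb1, Plxnb2, Plxnd1, Nrp1 and Nrp2, and probe sets that were not tested, were added after their values were seen. Other settings tried were median division, quantile normalization, no filter and a 75th percentile filter, an offset, leaving out each array, a replicate block, eBayes without trend, the mean of a gene's probe sets and the methods' t-test, which is the 1-way test named in the series design.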

Additional observations from a re-analysis of the deposited data

How the results depend on the processing

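Of the 33 gene and probe set changes, 19 kept their sign under every alternative run and 14 did not. None of their 438 alternatives gave an adjusted p under 0.05 in limma (lowest 0.194). Median division, read relative to the shift of all probe sets, moves every change by the same amount and is no separate check of sign. Opposite signs came from quantile normalization for Plxna3 (0.033), from the mean of all probe sets for Sema6a (0.13), and, with 1 array left out in turn, for Sema3a (-0.039 to 0.096), Sema3c (-0.087 to 0.098), Sema4b (-0.030 to 0.30), Sema4g (-0.31 to 0.16), Sema3d (-0.10 to 0.38), Plxna3 (-0.19 to 0.17), Plxnb2 (-0.10 to 0.16), Sema4c (-0.016 to 0.20), Sema6b (-0.29 to 0.74), Sema5a (-0.16 to 0.37), Plxna1 (-0.18 to 0.024), Plxna4 (-0.46 to 0.032), Plxnb3 (-0.016 to 0.16). The counts of members at an unadjusted p under 0.05 are given with the share of all tested probe sets in parentheses. With division by the array median, whose p-values keep the shift of 0.23, 6 were higher (11.9%) and 0 lower (1.12%). After quantile normalization 0 were higher (3.67%), with no filter on signal 2 were higher (2.62%), and with the stricter filter at percentile 75 0 were lower (2.11%). With the offset 2 were lower (4.76%), without the trend 0 were higher (2.96%) and 2 lower (4.85%), and by the methods' t-test 0 were higher (2.24%). With 1 array left out 0 to 3 were higher (1.69% to 6.8%) and 0 to 7 lower (2.4% to 7.43%). The 7 came without wild type replicate 1, where 12.5% of the members were lower, against 7.43% of all tested. In that setting 5.36% of the members were higher, against 6.8%. Both counts were 0 without wild type replicate 2 and without Nogo-A KO replicate 3. Non-overlapping members numbered 5, or 8.93% against 14.5% of all tested, 10 with median division (17.9% against 21.9%), 8 with no filter (10.3% against 14.3%) and 3 with the stricter one (13% against 15.4%). With 1 array left out, where fewer values make no overlap more frequent by construction, they numbered 7 to 16 (13% to 28.6%, against 21.2% to 32.7% of all). Over all probe sets, adjusted calls were 0 higher and 1 lower. They were 1 higher with median division, 0 lower without the trend and by the methods' t-test (lowest adjusted p = 0.66), and 0 to 1 higher and 0 to 8 lower with 1 array left out, the 8 without wild type replicate 1. Unadjusted calls were 1013 higher and 938 lower, against 2800 and 263 with median division, 527 and 609 by the methods' t-test, 390 to 1570 and 553 to 1715 with 1 array left out, 2488 lower with no filter and 247 lower with the stricter one. The median rank of the genes in wild type, 72.6, was 68.2 as the mean of all tested probe sets and 73.9 to 75.9 with 1 wild type array left out. Same-numbered arrays were not pairs by any label: their deviations correlated at -0.03, 0.07 and 0.11, and 3 of 6 arrays correlated best with their own number. A replicate block gave 3 probe sets higher at an adjusted p under 0.05 and 3 members higher at an unadjusted p (5.29% of all tested). With it Nrp1 had an unadjusted p in limma of 0.0279 and Plxnc1 of 0.0564. The cause of these shifts was not tested. Of the 31 genes, Sema3f, Sema6b, Sema6c and Plxnd1 had intervals that passed a 2-fold difference.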
